A study of Mus musculus with 8 samples.

Results

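The hnRNP and SR genes encode the main families of RNA-binding proteins that coat newly made transcripts and steer their splicing. They were taken as the protein-coding genes whose mouse symbol begins with Hnrnp or Srsf, with pseudogenes left out. The rule gave 31 genes, 20 hnRNP and 11 SR genes, of 55401 genes in the count table, of which 19199 were named and protein coding. Their mRNAs were followed in RNA immunoprecipitation (RIP), in which an antibody recovers a protein from a lysate together with the RNA that comes with it. The 8 libraries came from C57BL/6 mouse tissue labelled hippocampus and formed 3 groups, CaMKIIβ RIP, in which the antibody recognises CaMKIIβ (3 libraries), IgG RIP with IgG as the control antibody (3 libraries), and 2 Input libraries, which saw no antibody. CaMKIIβ is the β form of a calcium-activated kinase that is abundant at excitatory synapses and assembles into large holoenzymes. No genotype other than the strain, no treatment and no age was given in the sources used here, and whether the libraries came from separate animals was not given either. The p-values therefore measure the spread between these libraries, which may be technical.

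Most hnRNP proteins bind pre-mRNA through RNA recognition motifs or KH domains, and they often repress the use of nearby splice sites. An SR protein joins RNA recognition motifs to a tail rich in arginine and serine, binds exonic enhancers and recruits the spliceosome, the machine that removes introns. Both families regulate their own output: many of their genes contain exons or introns whose inclusion or retention keeps the transcript in the nucleus or sends it to nonsense-mediated decay. Several members shuttle to the cytoplasm, where they take part in the export, transport, translation and decay of mRNAs. In neurons they also accompany mRNAs into axons and dendrites.

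Promoters of 3 members are printed because these genes carried the extremes of the comparisons below: Srsf7 and Srsf6 had the largest falls against Input, and Hnrnpul1 was the member that rose in IgG RIP. Each line gives the 250 bases before the start site annotated by RefSeq on GRCm38.p6, 5′ to 3′ on the strand of the gene. Capitals mark matches on either strand to the ETS motif CCGGAAG, the GC box GGGCGG, the CCAAT box CCAAT and the TATA box TATAAA. The windows are chr17:80207306-80207555 on the minus strand for Srsf7, chr2:162931258-162931507 on the plus strand for Srsf6, and chr7:25754760-25755009 on the minus strand for Hnrnpul1.
Srsf7: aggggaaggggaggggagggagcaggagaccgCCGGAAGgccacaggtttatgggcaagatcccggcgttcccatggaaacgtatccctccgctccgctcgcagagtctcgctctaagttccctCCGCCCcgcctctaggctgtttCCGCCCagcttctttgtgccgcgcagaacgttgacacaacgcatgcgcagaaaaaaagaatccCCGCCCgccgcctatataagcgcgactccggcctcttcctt
Srsf6: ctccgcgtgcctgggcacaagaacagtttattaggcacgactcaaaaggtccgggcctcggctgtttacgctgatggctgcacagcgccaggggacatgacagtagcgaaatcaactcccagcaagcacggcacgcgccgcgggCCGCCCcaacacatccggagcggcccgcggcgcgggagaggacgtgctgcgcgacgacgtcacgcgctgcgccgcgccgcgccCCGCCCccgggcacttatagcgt
Hnrnpul1: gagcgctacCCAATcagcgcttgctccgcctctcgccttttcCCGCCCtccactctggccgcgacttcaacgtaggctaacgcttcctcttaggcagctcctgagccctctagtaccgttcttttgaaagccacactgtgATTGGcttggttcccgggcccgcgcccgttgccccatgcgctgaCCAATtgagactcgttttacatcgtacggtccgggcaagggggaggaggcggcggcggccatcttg
The Srsf7 window held 3 GC boxes and 1 ETS match, the Srsf6 window 2 GC boxes, and the Hnrnpul1 window 1 GC box and 3 CCAAT boxes. Near its end the Srsf7 window also holds tatataa, which the exact letters TATAAA do not match. GC-rich promoters, rich in CpG and mostly without a TATA box, are typical of genes that every cell uses. RefSeq windows were found for 29 of the 31 members, 41 windows in all, and their median GC content was 68.0%, against 52.4% for all 32851 windows and 55.6% for those of protein-coding genes. A GC box was present in 33 member windows (80.5%), against 32.7% of all windows and 42.6% of coding windows. The ETS motif was present in 22.0% of member windows (9 windows of 6 genes), against 6.91% of all windows and 8.98% of coding windows. The CCAAT box was present in 48.8% of member windows, against 33.9% of all and 35.4% of coding windows. A TATA box was found in 7.32% of member windows, against 12.4% of all windows and 11.6% of coding windows. No searched motif is contained in another, and a match describes letters in the window, not a site in use.

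Total counts per library ranged over 17273957 to 28138289, and all 31 members passed the filter on low counts in each of the 3 comparisons. CaMKIIβ RIP replicate 2 stood apart: it had the fewest counts and 19247 genes with at least 1 count, against 24865 to 28458 in the other RIP libraries. The distance between a pair of libraries, taken as the chi-square per gene, was 27.4 to 53.7 among CaMKIIβ RIP libraries, 5.69 to 12.4 among IgG RIP libraries and 4.59 between the Input libraries. The label hippocampus was set against marker genes. The 8 cerebellar granule cell markers summed to 6704 to 7433 CPM (counts relative to the library total, scaled by TMM over the 8 libraries) in CaMKIIβ RIP, 6940 to 7299 in IgG RIP and 4551 to 4697 in Input. The 8 hippocampal neuron markers summed to 1045 to 1328 CPM in CaMKIIβ RIP, 1289 to 1345 in IgG RIP and 972 to 997 in Input, and no marker of either list was at 0 in every library. Most of the hippocampal sum was Zbtb20, with a mean of 936.7 CPM in CaMKIIβ RIP, 1021.5 in IgG RIP and 721.7 in Input. The lowest hippocampal marker, Spink8, averaged 1.42 CPM over the 8 libraries. In IgG RIP against Input 3 of 8 granule cell markers rose and 3 fell, with a median log2 fold change of 0.00067, and 2 of 6 Purkinje cell markers rose and 2 fell, with a median of 0.07. The largest part of the granule cell sum was Fat2, with a mean of 4295 CPM in CaMKIIβ RIP, 4374 in IgG RIP and 1557 in Input. Itpr1 was likewise the largest part of the Purkinje cell sum of 6972 to 8085 CPM in CaMKIIβ RIP, 7031 to 7485 in IgG RIP and 3959 to 3973 in Input, with a mean of 6515 CPM in CaMKIIβ RIP, 6229 in IgG RIP and 2526 in Input. Of the glial lists, 5 of 5 astrocyte, 4 of 6 oligodendrocyte and 2 of 5 microglial markers were higher in IgG RIP than in Input, and their part in the results below was not tested. For marker levels in Input, from tissue of mixed cells, fewer cells of a type and less RNA per cell cannot be told apart.

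In Input, the members spanned a wide range of level per kilobase of exon. Hnrnpa1, which packages pre-mRNA and competes with SR proteins for splice site choice, had the highest level per exon length, 61.5 ± 3.01 CPM per kb (SD, n = 2). Srsf5, an SR protein with 2 RNA recognition motifs, led its family at 54.3 ± 1.38 CPM per kb. Close behind in level per length were Hnrnpa2b1 at 52.6 ± 2.71 and Hnrnpa3 at 48.3 ± 0.0537 CPM per kb, so that the upper end of the order was held by the hnRNP A group and Srsf5. At the lower end stood Hnrnpll, which controls splicing of the leukocyte antigen CD45 in lymphocytes, at 5.45 ± 0.403 CPM per kb. Srsf12, a relative of Srsf10 that represses splicing, was the lowest at 4.68 ± 0.0410 CPM per kb, next to Srsf1 at 4.78 ± 0.482, and these neighbours did not differ beyond their spread.

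Against Input, the immunoprecipitates held lower scaled levels of most hnRNP and SR mRNAs, with either antibody. Summed over the 20 hnRNP genes, the level was 2139, 1645 and 2771 CPM in CaMKIIβ RIP, 2174, 2218 and 2224 CPM in IgG RIP, and 3035 and 3204 CPM in Input. Summed over the 11 SR genes, it was 369, 425 and 613 CPM in CaMKIIβ RIP, 399, 402 and 407 CPM in IgG RIP, and 847 and 907 CPM in Input. For both families every immunoprecipitate lay below both Input libraries, and the libraries of the antibodies overlapped. The 31 genes together took 0.240%, 0.206% and 0.328% of all counts in CaMKIIβ RIP, 0.251%, 0.256% and 0.250% in IgG RIP, and 0.423% and 0.448% in Input. Levels are scaled to library size, so the total amount of RNA recovered with an antibody cannot be seen. Mitochondrially encoded mRNAs were also lower, with median log2 fold changes of -2.11 in CaMKIIβ RIP (2 of 12 fell) and -1.98 in IgG RIP (12 of 12 fell), and their part in the results was not tested.

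**Figure D1:**
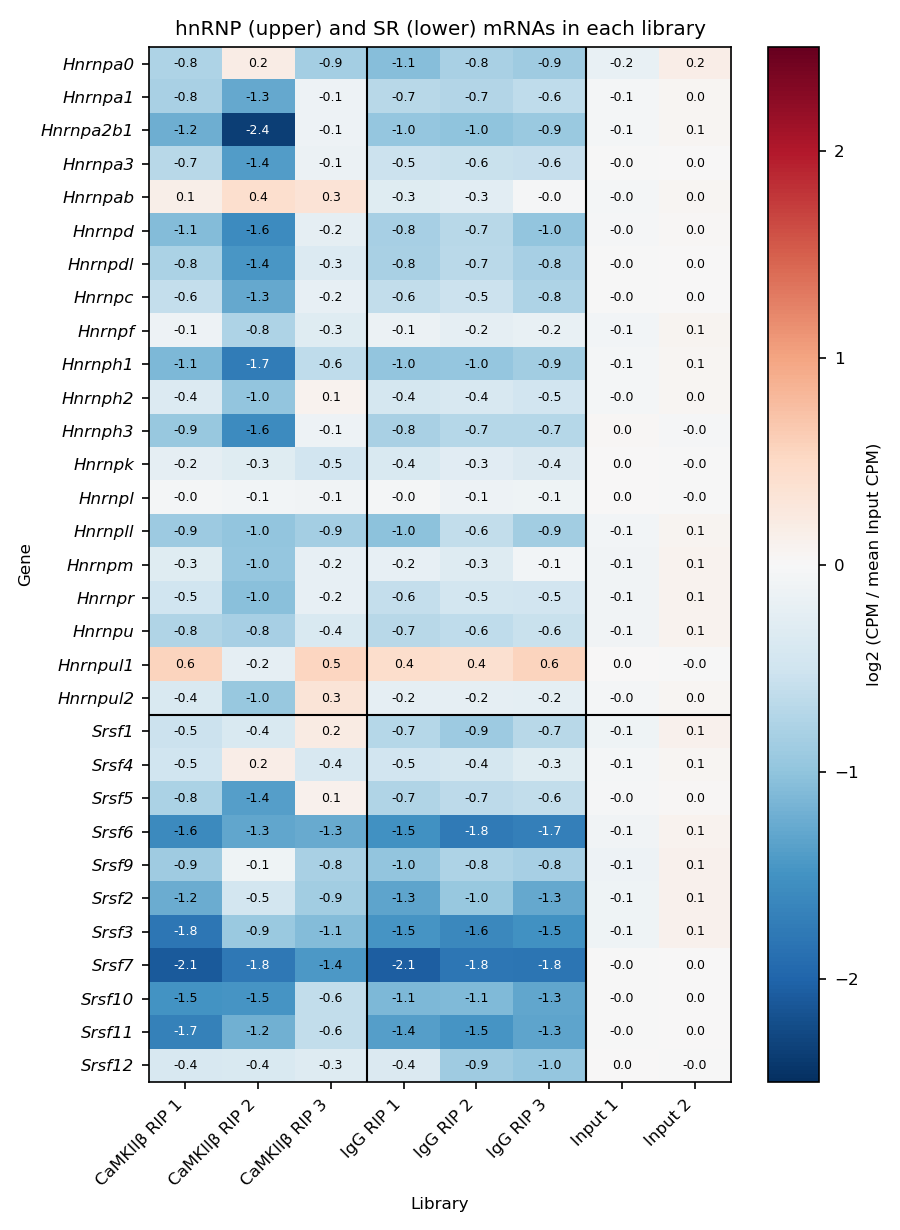
Colour and number give log2 of the CPM of each gene (rows) in each library (columns) over its mean CPM in Input, with blue below and red above the Input mean. Most cells of the CaMKIIβ RIP and IgG RIP columns are blue, with Srsf7 dark in all 6 of them, and CaMKIIβ RIP replicate 2 is darkest at Hnrnpa2b1 (67.8 CPM).

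IgG RIP against Input asks which RNAs came down with a control antibody, and its libraries were the more alike. Of 22342 genes tested with edgeR's quasi-likelihood test, 18.7% were lower and 20.1% higher in IgG RIP at a Benjamini-Hochberg adjusted p under 0.05. Of the 31 members, 26 fell and 1 rose: all 11 SR genes fell, 15 of 20 hnRNP genes fell, and Hnrnpul1 rose. The other 4 members, Hnrnpab, Hnrnpf, Hnrnpl and Hnrnpm, did not pass the threshold. The median log2 fold change was -0.67 over the members, -0.54 over hnRNP genes and -1.12 over SR genes, beside -0.02 over all genes tested. All 3 IgG RIP libraries lay below both Input libraries for 28 of 31 members, where 33.8% of all genes tested did so, and above both for Hnrnpul1 alone, where 26.8% did so. With library size scaling alone the shares of all genes were 28.4% lower and 12.1% higher and their median was -0.25, so that 30 members then passed as lower, Hnrnpul1 still as higher. In a fit of all 8 libraries, whose spread includes that of CaMKIIβ RIP, 14 members passed as lower and 0 as higher, where 7.15% of all genes were lower and 8.75% higher.

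The CaMKIIβ antibody was also set against Input, which gives what was recovered with it whether or not the control antibody recovered it too; both comparisons share the Input libraries. Of 22095 genes tested, 3.4% were lower and 5.06% higher in CaMKIIβ RIP. Of the 31 members, 6 fell: Srsf7, Srsf6, Srsf3 and Srsf10 among SR genes, and Hnrnpll and Hnrnpu among hnRNP genes. None of the 31 rose past the adjusted threshold in edgeR, DESeq2 or limma-voom, and 0 were higher at an unadjusted p under 0.05 in any of these tools. At that p 13 members were lower in edgeR, 16 in DESeq2 and 20 in limma-voom. Of all 22095 genes, 4984 (22.6%) reached it in edgeR, 5143 in DESeq2 and 5838 in limma-voom, counting both directions. Median log2 fold changes were -0.62 over the members, -0.58 over hnRNP genes and -0.82 over SR genes, beside -0.12 over all genes tested. All 3 CaMKIIβ RIP libraries lay below both Input libraries for 22 of 31 members, where 28.6% of all genes did so, and above both for Hnrnpab alone, where 18.8% did so. With library size scaling alone 10 members passed as lower and the shares of all genes were 6.16% lower and 3.09% higher, with a median of -0.29; with a trend on exon length removed the shares were 2.6% lower and 6.52% higher.

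These calls rested on the libraries used. Without CaMKIIβ RIP replicate 2, the library that stood apart, 8 members fell, 4 of them among the 6 above, and Hnrnpul1 rose, where 7.39% of all genes were lower and 11.3% higher; the medians were then -0.32 over hnRNP and -0.92 over SR genes. Without CaMKIIβ RIP replicate 1, 0 of 21439 genes tested passed with edgeR, and the 6 members had adjusted p from 0.0765 to 0.233. At an unadjusted p under 0.05, 8 members were then lower and 1 was higher, where 4607 of the 21439 genes reached it in either direction. Without CaMKIIβ RIP replicate 3 the count lower was 10, where 3.99% of all genes were lower. Without Input replicate 2 it was 3, namely Srsf6, Srsf3 and Srsf7, where 0.611% of all genes were lower.

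**Figure D2:**
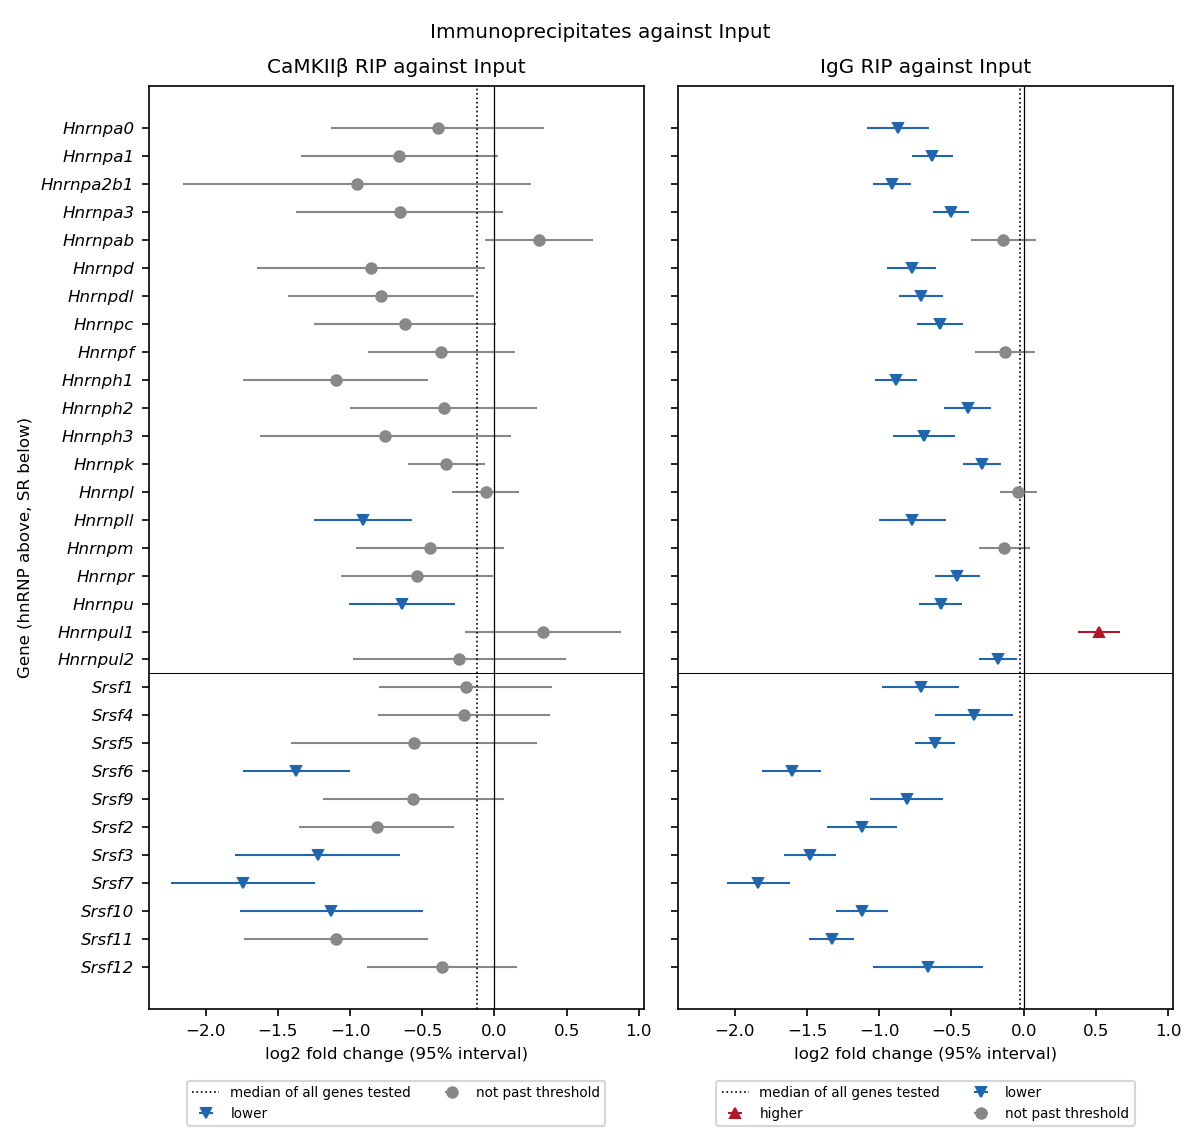
Points are log2 fold changes of each gene against Input in CaMKIIβ RIP (left) and IgG RIP (right), with 95% intervals. Triangles passed an adjusted p of 0.05 and grey circles did not, and the dotted line is the median of all genes tested. The intervals are wider on the left, and all 11 SR genes lie below 0 on both sides.

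The SR genes with 1 RNA recognition motif held the largest falls, with a median log2 fold change of -1.11 in CaMKIIβ RIP and -1.22 in IgG RIP against Input. Srsf7 (ENSMUSG00000024097.11, GRCm38 chromosome 17, 80200080 to 80207307, minus strand) encodes a shuttling SR protein with a zinc knuckle that promotes mRNA export. Its level was 14.9, 18.4 and 23.6 CPM in CaMKIIβ RIP, 15.2, 18.1 and 17.9 CPM in IgG RIP, and 62.8 and 64.1 CPM in Input. All 6 immunoprecipitates were far below both Input libraries, and the antibodies overlapped. The log2 fold change was -1.74 ± 0.21 (SE) in CaMKIIβ RIP, 3.34-fold lower (edgeR adjusted p = 0.00771), and -1.84 ± 0.10 in IgG RIP, 3.57-fold lower (adjusted p = 1.19e-09). Srsf3, the smallest SR protein and an export adaptor like Srsf7, had 32.6, 59.5 and 53.5 CPM in CaMKIIβ RIP, 40.7, 36.9 and 39.9 CPM in IgG RIP, and 105 and 122 CPM in Input. Again no immunoprecipitate reached the Input range, and CaMKIIβ RIP replicate 1 was the lowest library of all 8. Its log2 fold changes were -1.22 ± 0.24 in CaMKIIβ RIP (adjusted p = 0.0269, and 0.0717 without replicate 3) and -1.48 ± 0.09 in IgG RIP (adjusted p = 1.55e-09).

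Srsf10, a splicing regulator that becomes a repressor when dephosphorylated, had 31.6, 31.8 and 58.0 CPM in CaMKIIβ RIP, 40.9, 41.2 and 36.0 CPM in IgG RIP, and 87.8 and 89.8 CPM in Input. The groups did not overlap with Input, but CaMKIIβ RIP replicate 3 was well above the other immunoprecipitates. The gene fell by 1.13 ± 0.27 in CaMKIIβ RIP on the log2 scale (adjusted p = 0.0468), a call lost with RLE scaling (0.0517) and without CaMKIIβ RIP replicate 2 (0.0567) or Input replicate 2 (0.0589), and in IgG RIP by 1.12 ± 0.09 (adjusted p = 3.13e-08). Srsf11, an SR-like protein of nuclear speckles, had 45.8, 64.6 and 96.5 CPM in CaMKIIβ RIP, 57.2, 53.4 and 59.2 CPM in IgG RIP, and 147 and 148 CPM in Input. Every immunoprecipitate was again below Input, with a wide spread in CaMKIIβ RIP alone. It fell by 1.33 ± 0.07 in IgG RIP (adjusted p = 1.02e-09), whereas the value in CaMKIIβ RIP was -1.10 ± 0.27 (adjusted p = 0.0518). Srsf2, the speckle protein SC35, had a log2 fold change of -0.82 ± 0.23 in CaMKIIβ RIP (adjusted p = 0.0750) and fell by 1.12 ± 0.11 in IgG RIP (adjusted p = 6.37e-07). Srsf12 was the member of this group with the smallest difference: 11.2, 11.4 and 11.8 CPM in CaMKIIβ RIP, 11.4, 7.93 and 7.52 CPM in IgG RIP, and 14.8 and 14.6 CPM in Input. All immunoprecipitates lay below Input here too, and the fall in IgG RIP was 0.67 ± 0.18 (adjusted p = 0.00687), against -0.36 ± 0.22 in CaMKIIβ RIP (adjusted p = 0.425). The call in IgG RIP was lost in the fit of all 8 libraries (adjusted p = 0.0590) and without Input replicate 2 (0.0525).

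The SR genes with 2 RNA recognition motifs had median log2 fold changes of -0.56 in CaMKIIβ RIP and -0.71 in IgG RIP. Srsf6 (ENSMUSG00000016921.14, chromosome 2, 162931528 to 162937121, plus strand), which acts on exon choice in many transcripts, was the exception in size. It had 29.4, 36.1 and 36.8 CPM in CaMKIIβ RIP, 31.0, 25.9 and 27.1 CPM in IgG RIP, and 83.0 and 94.2 CPM in Input. No immunoprecipitate came near the Input libraries, and IgG RIP replicate 1 lay within the CaMKIIβ RIP range. The log2 fold change was -1.37 ± 0.16 in CaMKIIβ RIP, 2.59-fold lower (adjusted p = 0.00682), and -1.61 ± 0.10 in IgG RIP, 3.05-fold lower (adjusted p = 2.43e-09). Srsf5, the most abundant SR mRNA per length, had 125, 83.1 and 232 CPM in CaMKIIβ RIP, 129, 137 and 142 CPM in IgG RIP, and 213 and 220 CPM in Input. CaMKIIβ RIP replicate 3 was above both Input libraries and replicate 2 below every other library, so this group overlapped with Input while IgG RIP did not. The log2 fold change was -0.56 ± 0.36 in CaMKIIβ RIP (adjusted p = 0.462), and the gene fell by 0.61 ± 0.07 in IgG RIP (adjusted p = 1.06e-06).

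Srsf1, the founding SR protein, which also acts in nonsense-mediated decay and translation, fell by 0.71 ± 0.13 in IgG RIP, and its value in CaMKIIβ RIP was -0.20 ± 0.26 (adjusted p = 0.764). Srsf9, a close relative of Srsf1, fell by 0.81 ± 0.12 in IgG RIP, with -0.56 ± 0.27 in CaMKIIβ RIP (adjusted p = 0.280). Srsf4, which has a long arginine and serine tail, fell least of the family, by 0.34 ± 0.13 in IgG RIP (adjusted p = 0.0419), and its value in CaMKIIβ RIP was -0.21 ± 0.25. The call for Srsf4 was lost under DESeq2 (adjusted p = 0.0804), with an offset for exon length (0.0650), in the fit of all 8 libraries (0.297), and without IgG RIP replicate 1, IgG RIP replicate 2 or either Input library (0.0753 to 0.328). Its exons overlap those of Gm12992 on the opposite strand over 43.0% of their length. Strand and multiply mapping reads in the counting are not given in the sources used here, so reads of overlapping genes, and of processed pseudogenes, which are common in these families, cannot be told apart.

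**Figure D3:**
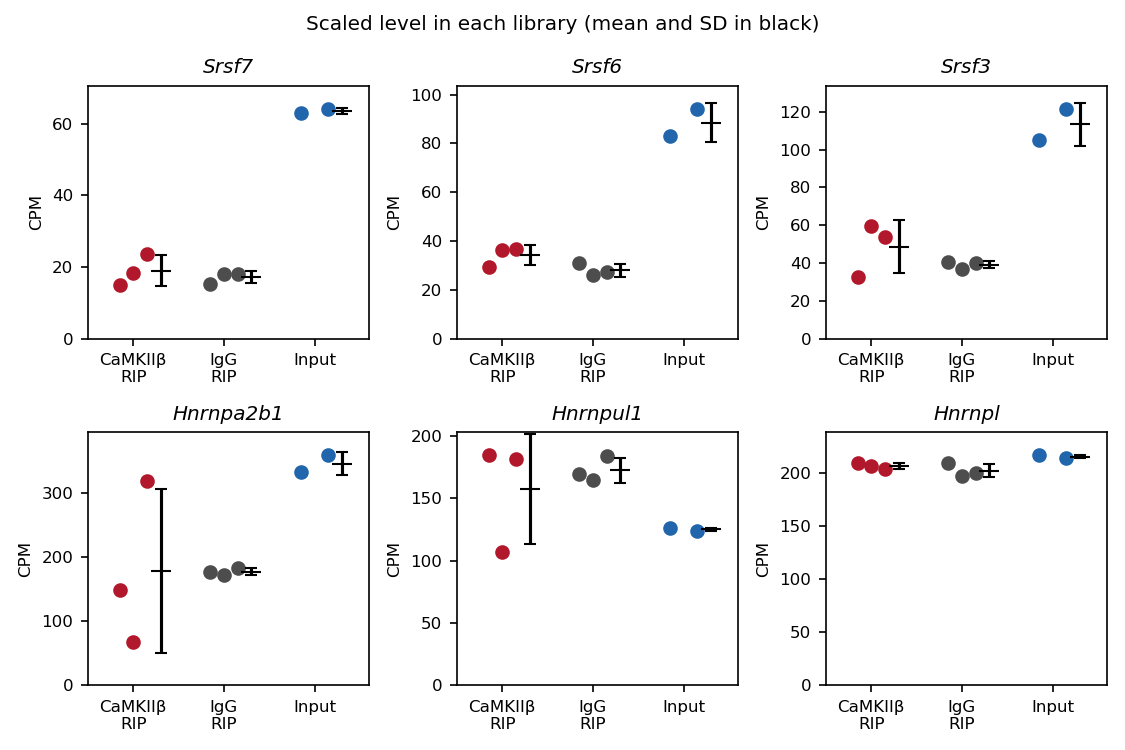
Each panel gives the CPM of a gene in every library (coloured points) with the mean and SD of its group in black, from CaMKIIβ RIP (n = 3) and IgG RIP (n = 3) to Input (n = 2). Srsf7, Srsf6 and Srsf3 sit below Input in all immunoprecipitates, Hnrnpa2b1 is spread from 67.8 to 319 CPM in CaMKIIβ RIP, Hnrnpul1 is above Input in IgG RIP, and Hnrnpl is nearly level at 197 to 216 CPM.

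Among hnRNP genes, the A/B and D group fell in IgG RIP in 6 of 7 cases, with a median log2 fold change of -0.71 there and -0.66 in CaMKIIβ RIP. Hnrnpa2b1, which binds transport signals in mRNAs such as that of myelin basic protein, was taken up in detail after its values were seen. It had 149, 67.8 and 319 CPM in CaMKIIβ RIP, 177, 172 and 183 CPM in IgG RIP, and 334 and 359 CPM in Input. The CaMKIIβ RIP libraries enclosed the whole IgG RIP range, and replicate 3 came close to Input. Its fall of 0.91 ± 0.06 was the largest of the hnRNP genes in IgG RIP (adjusted p = 8.58e-09), whereas -0.95 ± 0.52 in CaMKIIβ RIP did not pass (adjusted p = 0.354). Hnrnpa1 had 110, 79.9 and 178 CPM in CaMKIIβ RIP, 119, 116 and 126 CPM in IgG RIP, and 187 and 201 CPM in Input. No immunoprecipitate overlapped with Input, and the fall in IgG RIP was 0.63 ± 0.07 (adjusted p = 9.73e-07), against -0.66 ± 0.29 in CaMKIIβ RIP (adjusted p = 0.242).

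Hnrnpa0, which binds AU-rich elements of mRNAs, had 58.3, 113 and 54.7 CPM in CaMKIIβ RIP, 47.5, 56.5 and 53.3 CPM in IgG RIP, and 87.4 and 111 CPM in Input. CaMKIIβ RIP replicate 2 was the highest of all 8 libraries, unlike for most hnRNP genes, and overlapped with Input. The gene fell by 0.87 ± 0.10 in IgG RIP (adjusted p = 2.98e-06), against -0.39 ± 0.32 in CaMKIIβ RIP with all libraries. Hnrnpd, known as AUF1 and a regulator of mRNA decay, fell by 0.78 ± 0.08 in IgG RIP, its relative Hnrnpdl by 0.71 ± 0.07, and Hnrnpa3, a partner of hnRNP A2 on transport signals, by 0.50 ± 0.06. Their values in CaMKIIβ RIP were -0.85 ± 0.34, -0.79 ± 0.28 and -0.66 ± 0.31 for Hnrnpd, Hnrnpdl and Hnrnpa3. Hnrnpab, also a transcriptional regulator, did not follow this group, with -0.14 ± 0.11 in IgG RIP (adjusted p = 0.333) and 0.31 ± 0.16 in CaMKIIβ RIP (adjusted p = 0.331).

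The hnRNP F/H proteins bind runs of guanine, and 3 of their 4 genes fell in IgG RIP. Hnrnph1 fell most, by 0.88 ± 0.07 (adjusted p = 3.28e-08), and had -1.10 ± 0.27 in CaMKIIβ RIP (adjusted p = 0.0516). Hnrnph3 fell by 0.69 ± 0.10 in IgG RIP and the X-linked Hnrnph2 by 0.39 ± 0.08. Hnrnpf differed little, with -0.13 ± 0.10 in IgG RIP and -0.37 ± 0.22 in CaMKIIβ RIP, and 13.5% of its exon length overlaps 4933440N22Rik on the opposite strand. Hnrnpc, which binds uridine tracts of nuclear pre-mRNA, fell by 0.58 ± 0.08 in IgG RIP, with -0.62 ± 0.27 in CaMKIIβ RIP. Hnrnpk, a KH domain protein that binds cytosine-rich stretches, fell by 0.29 ± 0.06 in IgG RIP (adjusted p = 0.00109), with -0.33 ± 0.12 in CaMKIIβ RIP (adjusted p = 0.135). Hnrnpr, which accompanies actin mRNA into axons of motor neurons, fell by 0.46 ± 0.07 in IgG RIP, with -0.54 ± 0.22 in CaMKIIβ RIP.

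The L family was split. Hnrnpll had 34.0, 32.2 and 35.2 CPM in CaMKIIβ RIP, 31.3, 41.6 and 35.0 CPM in IgG RIP, and 60.4 and 67.0 CPM in Input. Its CaMKIIβ RIP libraries were close together and, like those of IgG RIP, all below Input. It fell by 0.91 ± 0.14 in CaMKIIβ RIP (adjusted p = 0.0142, and 0.181 without Input replicate 2) and by 0.77 ± 0.11 in IgG RIP (adjusted p = 2.41e-05). Hnrnpl, which binds CA repeats and was taken up in detail after its values were seen, had 209, 206 and 203 CPM in CaMKIIβ RIP, 209, 197 and 200 CPM in IgG RIP, and 216 and 214 CPM in Input. All immunoprecipitates lay just below Input, by amounts within the error of the fit: -0.06 ± 0.10 in CaMKIIβ RIP and -0.04 ± 0.06 in IgG RIP. The 95% interval of Hnrnpl in IgG RIP ran over -0.17 to 0.09. Hnrnpm, a binder of GU-rich sequence, had -0.45 ± 0.22 in CaMKIIβ RIP and -0.13 ± 0.08 in IgG RIP, neither past the threshold, and shares 14.7% of its exon length with Marchf2 on the same strand.

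The U family, proteins of the nuclear matrix with a SAP domain, held the exception in direction. Hnrnpu, which ties RNA such as Xist to chromatin, fell by 0.64 ± 0.16 in CaMKIIβ RIP (adjusted p = 0.0491) and by 0.57 ± 0.07 in IgG RIP (adjusted p = 4.48e-06). The call in CaMKIIβ RIP was lost with RLE scaling (adjusted p = 0.0591) and without CaMKIIβ RIP replicate 2 (0.0612), Input replicate 1 (0.0508) or Input replicate 2 (0.283). Hnrnpul1 (ENSMUSG00000040725.13, chromosome 7, 25721165 to 25754757, minus strand), which takes part in the repair of DNA breaks, had 184, 107 and 181 CPM in CaMKIIβ RIP, 169, 164 and 184 CPM in IgG RIP, and 126 and 124 CPM in Input. The IgG RIP libraries all lay above Input, whereas CaMKIIβ RIP replicate 2 lay below both Input libraries and the other CaMKIIβ RIP libraries above them. It rose in IgG RIP by 0.52 ± 0.07, 1.43-fold higher (adjusted p = 1.22e-05), and its value in CaMKIIβ RIP was 0.34 ± 0.23 (adjusted p = 0.490). In a fit of all 8 libraries the rise in IgG RIP was 0.46 and did not pass (adjusted p = 0.149). Hnrnpul2, its closest relative, fell by 0.18 ± 0.06 in IgG RIP (adjusted p = 0.0322), a call lost in the fit of all 8 libraries (0.727) and without IgG RIP replicate 1 (0.100), Input replicate 1 (0.0602) or Input replicate 2 (0.359).

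Enrichment over the control antibody is given by CaMKIIβ RIP against IgG RIP. No hnRNP or SR gene passed the test: of 20566 genes tested with edgeR 0.0% passed, and 0 of the 31 members passed in either direction, with adjusted p of 0.982 or more. At an unadjusted p under 0.05 there were 2 members, Hnrnpab and Srsf1, both higher in CaMKIIβ RIP, where 3.51% of all genes reached such a p. DESeq2 gave 3 such members and limma-voom 2, where 907 and 780 of the 20566 genes reached such a p in either direction. Neither tool called any member after adjustment. The libraries did not overlap for the same 2 genes, higher in CaMKIIβ RIP, where 4.57% of all genes lay higher without overlap, and for 0 members lower, where 7.33% of all genes lay lower. In 28 of 31 members the 95% interval lay within 2-fold on both sides, so for these the interval leaves room for smaller differences only.

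Hnrnpab (ENSMUSG00000020358.17, chromosome 11, 51600100 to 51606847, minus strand) had 41.3, 50.2 and 47.2 CPM in CaMKIIβ RIP, 30.3, 31.3 and 36.5 CPM in IgG RIP, and 36.3 and 38.7 CPM in Input. The CaMKIIβ RIP libraries were above all others, Input included. The log2 fold change between the antibodies was 0.51 ± 0.14, 1.43-fold (unadjusted p = 0.00542, edgeR adjusted p = 0.982), and 29.1% of its exon length overlaps Phykpl on the opposite strand. Srsf1 had 18.9, 20.9 and 31.3 CPM in CaMKIIβ RIP, 16.7, 14.5 and 16.9 CPM in IgG RIP, and 25.3 and 29.2 CPM in Input. Its CaMKIIβ RIP libraries lay above those of IgG RIP, with replicate 3 also above Input. The log2 fold change was 0.58 ± 0.22, 1.49-fold (unadjusted p = 0.0256, adjusted p = 0.982), and 0.32 without CaMKIIβ RIP replicate 3. The next smallest p belonged to Hnrnpa0, with 0.54 ± 0.25, and Srsf6, with 0.30 ± 0.16, whose library values are given above and whose groups overlapped. Without CaMKIIβ RIP replicate 2 the value of Hnrnpa0 was 0.12.

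As a family, the 11 SR genes all had log2 fold changes above 0 between the antibodies, with a median of 0.30 and a range of 0.05 for Srsf10 to 0.58 for Srsf1. Of the 20 hnRNP genes 9 had values above 0, and their median was -0.0041, beside -0.02 over all genes tested. None of these values passed the test, and those of Srsf4, Srsf5, Srsf7, Srsf10 and Srsf11 changed sign in at least 1 of 14 alternatives. The hnRNP median depended on the libraries, at 0.17 without CaMKIIβ RIP replicate 2 and -0.24 without replicate 3, while the SR median was 0.19 and 0.24 in those fits.

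**Figure D4:**
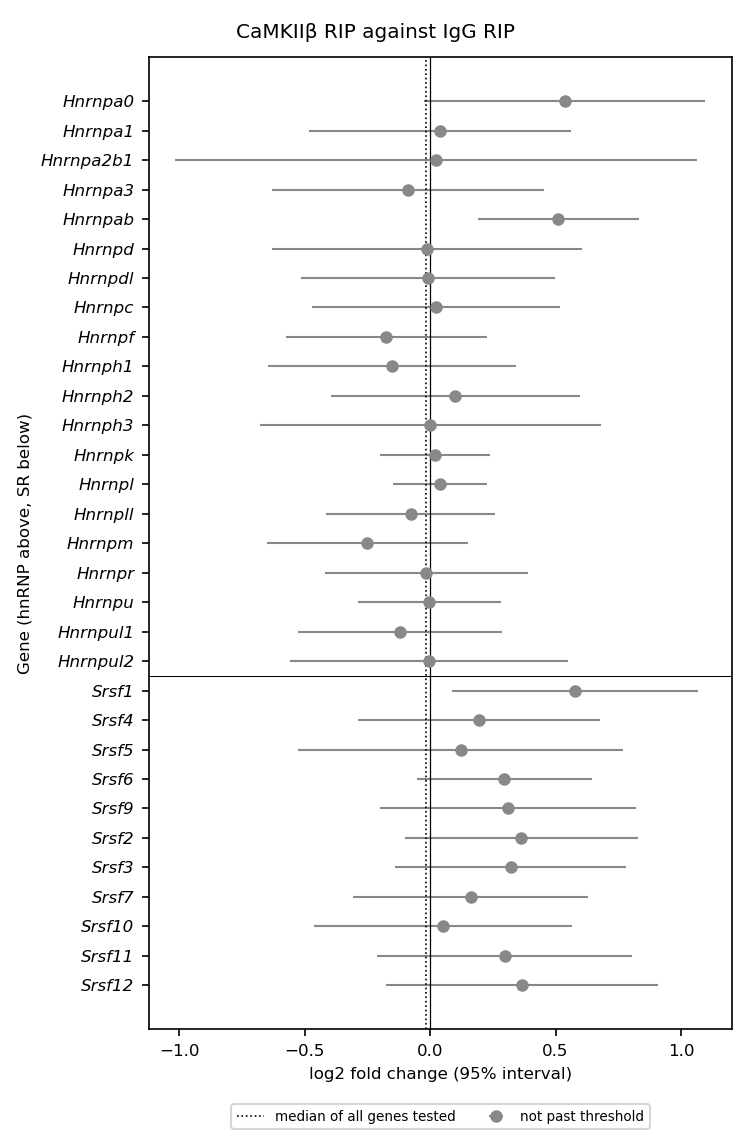
Points are log2 fold changes of CaMKIIβ RIP against IgG RIP for each gene with 95% intervals, hnRNP genes above and SR genes below. All are grey because none passed an adjusted p of 0.05, and the intervals of Hnrnpab and Srsf1 alone do not include 0.

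The members varied more among CaMKIIβ RIP libraries than within the other groups. The median coefficient of variation over the 31 genes was 29.0% in CaMKIIβ RIP, 5.84% in IgG RIP and 4.52% in Input. It exceeded 30% for 15 genes in CaMKIIβ RIP and for 0 in IgG RIP and Input. The same share over all genes is not given here. Over genes at large too, the CaMKIIβ RIP libraries lay furthest apart, at a chi-square per gene of 27.4 to 53.7. A wide spread was therefore not confined to the members. Among the members, the lowest library differed between the families. Replicate 2 was the lowest CaMKIIβ RIP library for 16 of 20 hnRNP genes, whereas replicate 1 was the lowest for 10 of 11 SR genes. Replicate 3 was the highest for 21 of all 31. The share of all genes with these orders is not given here, so they are not shown to be particular to the families. Hnrnpa2b1 had the largest coefficient of variation, 71.8%, and Hnrnpl the smallest, 1.38%. The 7 nuclear RNA markers, among them Malat1 and Neat1, summed to 8579, 6542 and 12294 CPM in CaMKIIβ RIP, 9781, 9684 and 9298 CPM in IgG RIP, and 23182 and 24641 CPM in Input. Malat1 was the largest part of this sum, with 7361, 5664 and 10971 CPM in CaMKIIβ RIP. The sum, and Malat1 alone, had the same order over these 3 libraries as the summed hnRNP level, but not as the summed SR level. Of the 7 markers, 5 fell in CaMKIIβ RIP and 7 in IgG RIP against Input. No nuclear marker was at 0 in every library, and the part of nuclear RNA in the results was not tested.

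Other proteins of hnRNP complexes were lower more often than higher in the immunoprecipitates. Of 16 such genes, 5 fell and 0 rose in CaMKIIβ RIP against Input, and 10 fell and 3 rose in IgG RIP, with medians of -0.47 and -0.45 in these comparisons. The median in CaMKIIβ RIP was -0.29 without CaMKIIβ RIP replicate 2. Syncrip, also called hnRNP Q, averaged 58.4 ± 17.0 CPM in CaMKIIβ RIP, 56.4 ± 6.58 CPM in IgG RIP (SD, n = 3 each) and 126 ± 8.36 CPM in Input (n = 2). It fell by 1.10 ± 0.22 in CaMKIIβ RIP (adjusted p = 0.0276) and by 1.10 ± 0.09 in IgG RIP. Rbmx, known as hnRNP G, fell by 1.11 ± 0.21 in CaMKIIβ RIP, and the cold-inducible Cirbp by 1.04 ± 0.12 in IgG RIP. Ptbp1, which represses neuronal exons, rose in IgG RIP by 0.66 ± 0.11, and the poly(C)-binding Pcbp3 by 0.54 ± 0.09.

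The enzymes that phosphorylate and import SR proteins were mixed: of 10 genes, 5 fell and 2 rose in IgG RIP, and 2 fell and 0 rose in CaMKIIβ RIP. Clk1, a nuclear kinase of SR proteins, fell by 1.24 ± 0.26 in CaMKIIβ RIP and by 1.33 ± 0.08 in IgG RIP, and the pre-mRNA splicing kinase Prpf4b by 1.18 ± 0.14 and 0.86 ± 0.07. Clk3 and Dyrk1a rose in IgG RIP by 0.76 ± 0.09 and 0.60 ± 0.06. Of 22 SR-related regulators, 11 fell and 5 rose in IgG RIP, and 7 fell and 1 rose in CaMKIIβ RIP. Arglu1, a coactivator with its own regulated intron, fell by 1.40 ± 0.30 in CaMKIIβ RIP and 1.22 ± 0.08 in IgG RIP. Relatives of the U1 particle also fell, Luc7l3 by 1.34 ± 0.33 in CaMKIIβ RIP and Luc7l2 by 1.19 ± 0.07 in IgG RIP. Scaf1 rose by 0.83 ± 0.11 in CaMKIIβ RIP and by 0.83 ± 0.09 in IgG RIP, and Scaf4 by 0.29 ± 0.08 in IgG RIP.

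Core spliceosome genes went both ways. Of 26 genes, 2 fell and 3 rose in CaMKIIβ RIP, and 7 fell and 13 rose in IgG RIP. Their medians were 0.07 in CaMKIIβ RIP and 0.22 in IgG RIP, beside -0.12 and -0.02 over all genes tested. With library size scaling they were -0.10 and -0.012, beside -0.29 and -0.25 over all genes tested. Prpf8, the large protein at the heart of the spliceosome, averaged 951 ± 116 CPM in CaMKIIβ RIP, 947 ± 47.7 CPM in IgG RIP and 319 ± 16.0 CPM in Input. It rose by 1.58 ± 0.13 in CaMKIIβ RIP (adjusted p = 0.00369) and by 1.63 ± 0.07 in IgG RIP, and the helicase Snrnp200 by 1.15 ± 0.12 and 1.13 ± 0.06. Snrpe, a small Sm protein of the core ring, fell by 2.12 ± 0.38 in CaMKIIβ RIP and fell by 1.67 ± 0.29 in IgG RIP, where its ring partner Snrpg fell by 1.26 ± 0.39. Sf3b1, which recognises the branch site, fell by 0.72 ± 0.10 in CaMKIIβ RIP. Over all genes tested the log2 fold change against Input rose weakly with exon length, with Pearson's r of 0.20 in CaMKIIβ RIP and 0.17 in IgG RIP, described across genes that share the same libraries. Over the 31 members r was -0.10 in CaMKIIβ RIP and 0.10 in IgG RIP. With a trend on exon length removed 7 and 25 members fell in these comparisons, where 2.6% and 18.1% of all genes were lower.

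**Figure D5:**
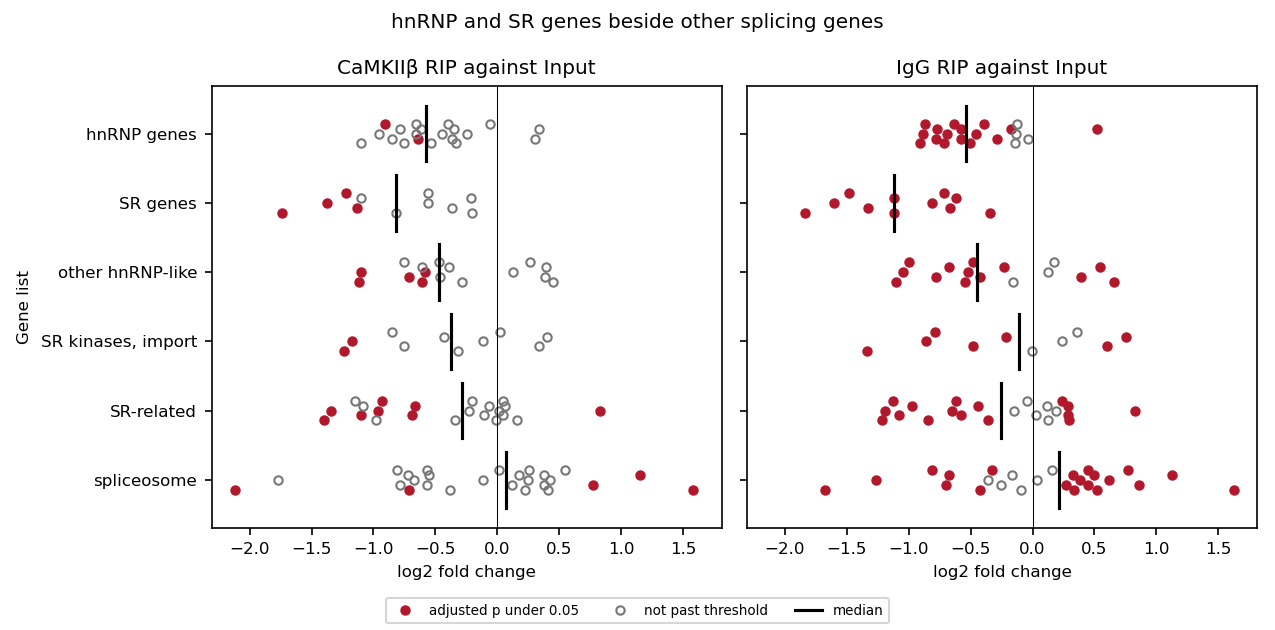
Each point is the log2 fold change of a gene against Input in CaMKIIβ RIP (left) and IgG RIP (right), grouped by list, filled red where the adjusted p was under 0.05, with the median as a bar. The SR genes have the lowest median in both panels (-0.82 and -1.12), and the spliceosome genes have the only medians above 0 (0.07 and 0.22). All genes tested had medians of -0.12 and -0.02. With library size scaling the spliceosome medians were -0.10 and -0.012, and those of all genes tested were -0.29 and -0.25.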

How the data were processed

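Raw read counts per gene were deposited by the authors as a table of 8 libraries on GRCm38.p6. The submitters' processing notes name STAR 2.7.3a, featureCounts 2.0.1, cutadapt 2.10 and Trim Galore 0.6.4. For strand, multiply mapping reads, duplicates and annotation, the settings are not given in the sources used here. Columns were mapped to libraries by name, with 0 left over, and the deposited exon length served for levels per kb. An Ensembl gene took the symbol of the RefSeq gene on GRCm38.p6 with which it shared at least 0.5 of their joint span, if no competitor reached 0.8 of that share (34132 genes, 96.1% of counts). Of 34 symbols with the prefixes, 3 carry pseudogene names and were left out.

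Each comparison was fitted separately, on the libraries it compares, with the quasi-likelihood F test of edgeR 4.0.16 (R 4.3.3, robust fit, TMM, filterByExpr with a minimum count of 10 and total of 15). P-values were adjusted by Benjamini-Hochberg over all genes tested, with a threshold of 0.05, and the fit was tested on simulated counts. The members and gene lists were chosen with earlier results of these data known. Values per library are given for the 4 largest changes past the threshold in each direction, the 4 smallest p between the antibodies and the highest and lowest level per length of each family; of other lists, up to 4 genes are named per comparison. Each member had at least 171 counts in every library. Alternatives were RLE and library size scaling, no count filter, DESeq2 1.42.0, limma-voom (limma 3.58.1), a fit of all 8 libraries, an offset for exon length (loess span 0.5), the replicate number as a block, and each library left out. Deviations of libraries with the same number correlated at -0.0625 to 0.0860, so the numbers were not taken to pair libraries. Promoter windows came from RefSeq. Python 3.11.15 with pandas 2.3.3 and matplotlib 3.10.9 drew the tables and plots.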

Additional observations from a re-analysis of the deposited data

How the results depend on the processing

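No call for a named member changed direction in any alternative. The count of members lower in IgG RIP than in Input, 26, stayed within 24 to 26 when an IgG RIP library was left out (17.9% to 19.8% of all genes lower). It was 14 in the fit of all 8 libraries (7.15% of all genes lower), where the count higher was 0 in place of 1. In that fit 13 calls were lost, and the spread is shared with the more variable CaMKIIβ RIP libraries. The count lower in CaMKIIβ RIP, 6, was 10 with library size scaling, 11 with DESeq2 and 11 in the fit of all 8 libraries, where 6.16%, 6.09% and 7.63% of all genes were lower against 3.4%, and 0 to 10 when a library was left out; the count higher was then 0 to 1. With the replicate number as a block the count lower in CaMKIIβ RIP was 20, where 10% of all genes were lower. RIP replicate 3, however, has no Input of its number and does not bear on that difference. The block gave 27 lower in IgG RIP, where 19.3% of all genes were lower, and changed no count between the antibodies. The counts between the antibodies were 0 in all alternatives. The median of the spliceosome list changed sign: against Input it was -0.10 in CaMKIIβ RIP with library size scaling, -0.025 with the replicate block and -0.026 to 0.22 when a library was left out (-0.026 without CaMKIIβ RIP replicate 1, -0.0039 without replicate 3), and in IgG RIP -0.012 with library size scaling. Library size scaling also moved the median of all genes tested, from -0.12 to -0.29 in CaMKIIβ RIP and from -0.02 to -0.25 in IgG RIP. What caused the changes in the counts and in the spliceosome median was not tested. Among members without a call between the antibodies, 51 sign changes in 20 members were seen over 14 alternatives. With 2 Input libraries the spread of Input rests on 1 difference.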
